A study of Mus musculus with 8 samples.

Results

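Genes of the elastic fibre were examined in LB-22, an immortalized cell line of mouse embryonic kidney origin, after an siRNA against Wt1, which encodes a zinc finger transcription factor. The list held 10 genes taken by their role in the elastic fibre, namely Eln, Fbn1, Mfap2, Mfap5, Fbln1, Fbln2, Fbln5, Efemp2, Lox and Loxl1. Of these, 8 genes were represented by 18 probe sets that the platform annotation assigned to a single gene symbol, out of 18193 named genes and 45037 probe sets without the array controls. No probe set was named here for Fbn1 and Efemp2, so these 2 genes were not analysed here. The list was put together because Fbln5 was strongly lower after Wt1 siRNA, so the differences between the siRNA groups are given for its members as a description, without p-values. Calls of members by limma are given as labels in that description and are no support for the list.

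The elastic fibre is the part of the extracellular matrix that lets a tissue recoil. Its core is elastin, made as the soluble precursor tropoelastin, and its outer mantle consists of fibrillin microfibrils with associated glycoproteins. Fibulins bind tropoelastin and bring it to the microfibrils, and lysyl oxidases then crosslink it into an insoluble polymer. In mice, loss of Fbln5 leaves elastic fibres disorganised in skin, lung and arteries, and loss of Lox weakens the wall of the aorta. In the kidney, elastic fibres are found mainly in the walls of arteries.

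Total RNA was measured on 8 Affymetrix Mouse 430_2 arrays. The 4 Wt1 siRNA arrays came from cells given 25 pmol of an siRNA against Wt1, and the 4 control siRNA arrays from cells given the same amount of a scrambled siRNA. Both groups shared the rest of the treatment. Cells were expanded at 33 °C with 10 U/ml of interferon gamma, transfected for 6 h by lipofection, moved to 37 °C without interferon and harvested 48 h after transfection. All arrays are of 1 immortalized line, and nothing in the labels says that replicates came from separate cultures, so the errors cover the spread between these arrays alone and may be technical.

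Each value is a MAS5 signal, a linear intensity for 1 probe set on 1 array. The arrays had the same trimmed mean signal, and their number limits the precision. The log2 signals of the 22518 tested probe sets, the brighter part of the table, correlated at 0.966 to 0.985 within groups and at 0.937 to 0.967 between groups. Wt1 had a mean signal of 1610 ± 251 on Wt1 siRNA arrays and of 7787 ± 607 on control siRNA arrays (SD, n = 4 each). The exact permutation p, two-sided, was 0.0286, which is as small as this design allows. Its probe set can match several transcripts. Markers of the kidney stroma and nephron progenitors were only partly above background, taken as the highest signal of any Bacillus control probe set, 227.2. Meis1, Tcf21 and Tbx18 of the stroma and Six2, Osr1 and Eya1 of nephron progenitors were above it on all arrays. Pdgfra and Pdgfrb of the stroma were above it on some arrays. Foxd1 of the stroma and Cited1 and Sall1 of nephron progenitors were below it on all arrays, and Pax2 was unnamed here. All 5 mesothelial markers (Msln, Upk3b, Upk1b, Krt19 and Lrrn4) were above it.

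Among the members, Fbln5 and the crosslinking enzyme genes Lox and Loxl1 were lower after Wt1 siRNA, at 34.4%, 50.7% and 57.0% of the control level on the brightest probe set of each gene. Fbln1 went the other way on 2 of its 3 probe sets, with log2 differences (Wt1 siRNA minus control siRNA) of 0.72 and 0.58. Elastin had a log2 difference of -0.42, larger than the SD of its log2 signals within groups (0.21 in each), but its groups overlapped and it was not called. The microfibril genes Mfap2 and Mfap5 had differences within or near the spread of the arrays. Of the 18 member probe sets, 12 were bright enough to be tested, with at least 1 for each of the 8 genes. By limma at an adjusted p under 0.05 over all tested probe sets, 4 of these 12 were called lower, 2 higher and 6 were not called. Over all 22518 tested probe sets, 23.1% were called, 12.3% lower and 10.8% higher, and since the fall of Fbln5 chose the list, nothing is read from the members' count. The groups did not overlap on 6 of the 12 member probe sets, against 27.0% of all tested probe sets. The median log2 difference was -0.39 over the 12 member probe sets and -0.01 over all tested probe sets. Both comparisons include Fbln5, whose fall chose the list, and several probe sets of the same gene, so nothing is read from them either.

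**Figure D1:**
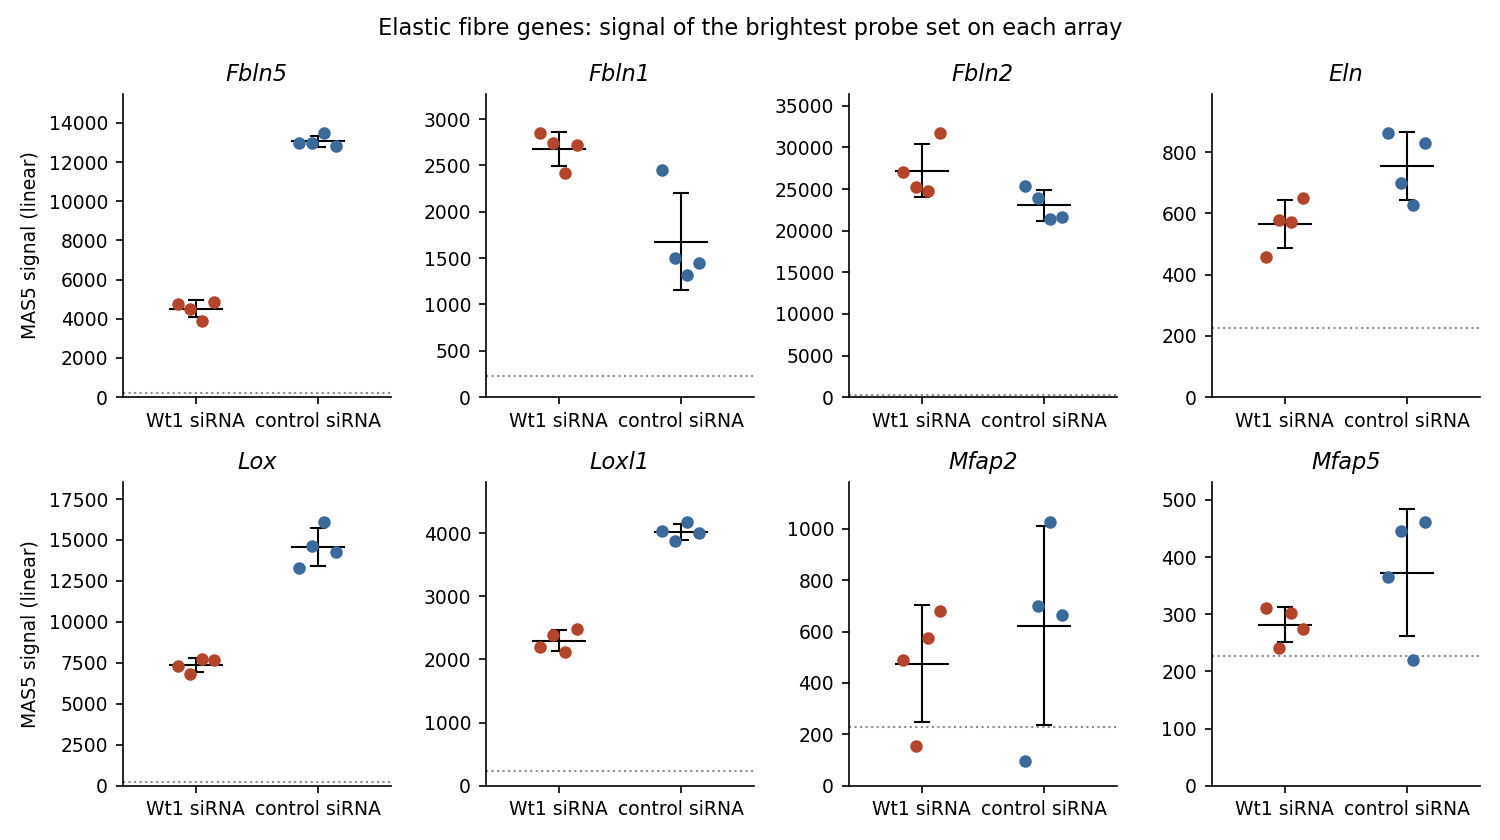
MAS5 signal (linear scale from 0) of the brightest probe set of each elastic fibre gene on each array, with the 4 Wt1 siRNA arrays left of the 4 control siRNA arrays. Points are arrays, the horizontal bar is the group mean, the error bar is the SD, and the dotted line is the background of 227.2. For Fbln5, Lox and Loxl1 every Wt1 siRNA array lies below every control siRNA array, and for Mfap2 the arrays of both groups spread on either side of the background.

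Elastin, encoded by Eln, is the elastic core of the fibre. Its brighter probe set had signals of 459.5, 578.7, 571.5 and 650.7 on Wt1 siRNA arrays 1 to 4, and of 862.6, 699.4, 627.5 and 830.3 on control siRNA arrays 1 to 4. The groups overlapped by 1 array on each side, since Wt1 siRNA array 4 lay above control siRNA array 3. The log2 difference was -0.42 ± 0.17 (SE of the fit, as for all log2 differences below) and was not called. The other Eln probe set was below background on all 8 arrays, with signals of 81.3 to 85.4 on Wt1 siRNA arrays and 55.9 to 93.1 on control siRNA arrays, so it gives no fold change.

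Mfap2 and Mfap5 encode small glycoproteins bound to fibrillin microfibrils. The brighter Mfap2 probe set was unstable between arrays, with 489.7, 154.9, 577.2 and 681.0 on Wt1 siRNA arrays and 96.2, 700.2, 1028.7 and 666.6 on control siRNA arrays. Wt1 siRNA array 2 and control siRNA array 1 fell below background while the other 3 arrays of each group were above it. The SD of the log2 signals was 0.97 on Wt1 siRNA arrays and 1.54 on control siRNA arrays, against a median SD within groups of 0.191 over all tested probe sets. The log2 difference, -0.16 ± 0.67, had no settled sign, since it was 0.32 without Wt1 siRNA replicate 2 and -0.91 without control siRNA replicate 1.

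The brighter Mfap5 probe set had 310.8, 241.4, 302.3 and 273.3 on Wt1 siRNA arrays and 364.4, 446.2, 219.0 and 462.0 on control siRNA arrays. Control siRNA array 3 lay below every Wt1 siRNA array and the other control arrays above them all, and the log2 difference of -0.35 ± 0.26 was not called. It was -0.59 without control siRNA replicate 3 and -0.23 without control siRNA replicate 4, not called in either case. The dimmer probe sets of both genes were below background on most arrays. The second Mfap2 probe set, which can also match other transcripts, exceeded it on 1 Wt1 siRNA array and 2 control siRNA arrays. The second Mfap5 probe set exceeded it on 1 Wt1 siRNA array and on 0 control siRNA arrays.

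Fbln5 encodes fibulin-5, a secreted protein that binds tropoelastin, lysyl oxidase-like 1 and integrins of the cell surface. Its brighter probe set had signals of 4752.6, 4501.2, 3909.7 and 4875.3 on Wt1 siRNA arrays and of 12950.4, 12995.1, 13475.0 and 12831.3 on control siRNA arrays. All Wt1 siRNA arrays lay far below all control siRNA arrays, and the control arrays lay close together, with means of 4510 ± 429 and 13063 ± 283 (SD, n = 4 each). The log2 difference was -1.54 ± 0.08, which ranked 99 from the lowest among the 22518 tested probe sets. The list was chosen for this fall, so the rank is a description only.

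The second Fbln5 probe set was too dim to be tested. It had 171.2, 31.2, 73.1 and 103.4 on Wt1 siRNA arrays, all below background, and 323.8, 294.2, 246.3 and 243.3 on control siRNA arrays, all above it. The groups did not overlap, and the control siRNA signal was at least 1.21-fold higher than that of Wt1 siRNA, with signals below background set to 227.2.

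Fbln1 encodes fibulin-1, a matrix and plasma glycoprotein found in elastic fibres and basement membranes, which is made in several splice forms. Its brightest probe set, of a kind that matches several transcripts of the gene, had 2849.0, 2737.5, 2416.1 and 2719.6 on Wt1 siRNA arrays and 2452.8, 1499.8, 1315.3 and 1447.3 on control siRNA arrays. Control siRNA array 1 stood apart from its group and lay just above the lowest Wt1 siRNA array. The log2 difference was 0.72 ± 0.17 and was called higher. It was 0.92 without control siRNA replicate 1.

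A second Fbln1 probe set had 1110.8, 1020.9, 1253.3 and 1121.0 on Wt1 siRNA arrays and 811.6, 672.4, 783.8 and 736.7 on control siRNA arrays. Here the groups did not overlap, and the log2 difference of 0.58 ± 0.13 was called higher. The third Fbln1 probe set had the opposite sign, with 420.0, 264.0, 192.1 and 426.9 on Wt1 siRNA arrays and 512.5, 556.9, 459.9 and 463.4 on control siRNA arrays. Its groups did not overlap either, but its Wt1 siRNA arrays varied widely and 1 of them was below background. Its log2 difference of -0.69 ± 0.27 was not called. Without Wt1 siRNA replicate 4 it was -0.84 and called lower, and without Wt1 siRNA replicate 3 it was -0.46 and not called. The probe sets of Fbln1 therefore disagreed in direction, and which transcripts each of them matches was not examined.

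Fbln2 encodes fibulin-2, which binds fibrillin and tropoelastin and acts with fibulin-5 in forming the inner elastic layer of mouse arteries. Its brighter probe set had 27093.4, 25199.0, 24747.6 and 31725.3 on Wt1 siRNA arrays and 25313.7, 23872.4, 21438.4 and 21616.2 on control siRNA arrays. The groups overlapped, with Wt1 siRNA array 4 the highest of all, and the log2 difference of 0.23 ± 0.09 was not called. With quantile normalization it was 0.12 and not called. The dimmer Fbln2 probe set had 146.7 to 416.6 on Wt1 siRNA arrays and 242.8 to 377.4 on control siRNA arrays. Its log2 difference of -0.15 ± 0.33 was not called. That difference had the opposite sign, 0.18, without Wt1 siRNA replicate 4, whose signal of 146.7 was below background.

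Fbln5, the fibulin gene among the members that was lower, is set beside Fbln1, called higher on its brighter probe sets but not on its dimmest. For each, the stretch of 250 bases upstream of the first annotated transcription start is shown, from RefSeq on GRCm38.p6. Capitals mark GC boxes (GGGCGG) and E-boxes (CACGTG), searched on both strands together with AP-1 sites (TGANTCA), a WT1 and EGR core (GNGTGGGNG) and the TATA motif (TATAAA). No match in these windows overlaps another. The Fbln5 window lies on the minus strand at chr12:101819120-101819369 and the Fbln1 window on the plus strand at chr15:85205699-85205948.
Fbln5: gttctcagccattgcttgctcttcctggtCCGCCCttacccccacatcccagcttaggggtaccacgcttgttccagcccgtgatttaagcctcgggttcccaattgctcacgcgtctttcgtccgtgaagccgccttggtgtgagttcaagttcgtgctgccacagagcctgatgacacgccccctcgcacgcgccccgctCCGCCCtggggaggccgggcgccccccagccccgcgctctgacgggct
Fbln1: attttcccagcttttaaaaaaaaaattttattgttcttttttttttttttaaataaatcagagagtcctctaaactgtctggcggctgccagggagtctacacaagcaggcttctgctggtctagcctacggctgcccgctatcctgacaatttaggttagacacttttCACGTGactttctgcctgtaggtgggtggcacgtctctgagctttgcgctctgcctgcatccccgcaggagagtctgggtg

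The Fbln5 window holds 2 GC boxes, both on the opposite strand, and has a GC content of 65.2% with 21 CpG dinucleotides. The Fbln1 window holds 1 E-box and has a GC content of 46.4% with 7 CpG dinucleotides. Each gene has a second annotated start, whose window turns this contrast round. The second Fbln5 window has a GC content of 49.6% with 6 CpG dinucleotides and 0 GC boxes, and the second Fbln1 window, which overlaps the printed one, has 62.4% with 14 CpG dinucleotides, 1 GC box and 1 E-box. The medians over all 32851 windows of the table were 52.4% and 6. A GC box was present in 32.7% of all windows, an E-box in 6.02%, an AP-1 site in 6.75%, the WT1 and EGR core in 12.7% and the TATA motif in 12.4%. The table held 7 windows for 4 of the genes (Fbln5, Fbln1, Fbln2 and Mfap2), and the letters of the WT1 and EGR core, the AP-1 site and the TATA motif were in 0 of these 7. These matches are a description of the letters only.

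Lox encodes lysyl oxidase, the copper enzyme that starts the crosslinking of elastin and collagen. Its brightest probe set had 7283.5, 6831.3, 7736.3 and 7688.9 on Wt1 siRNA arrays and 13285.7, 14647.1, 16122.0 and 14249.2 on control siRNA arrays. The groups were well separated, and the log2 difference was -0.98 ± 0.08. A second probe set for Lox had 4444.9, 4555.2, 5289.6 and 5360.7 on Wt1 siRNA arrays and 10410.8, 11826.4, 7056.0 and 9841.9 on control siRNA arrays. It gave nearly the same log2 difference, -0.97 ± 0.14, with control siRNA array 3 the nearest to the Wt1 siRNA arrays. Both were called lower. The third Lox probe set was too dim to be tested, with 1 Wt1 siRNA array and 2 control siRNA arrays above background.

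Loxl1 encodes lysyl oxidase-like 1, a crosslinking enzyme that binds fibulin-5 and is needed for elastic fibre upkeep in mice. Its brighter probe set had 2188.9, 2390.1, 2118.8 and 2482.8 on Wt1 siRNA arrays and 4024.4, 3869.8, 4181.0 and 4005.1 on control siRNA arrays. The 2 groups were tight and did not overlap, and the log2 difference of -0.81 ± 0.08 was called lower. The other Loxl1 probe set was below background on all 8 arrays, with 19.9 to 48.5 on Wt1 siRNA arrays and 40.0 to 69.3 on control siRNA arrays. In these bulk samples fewer cells that express a gene and less of its RNA per cell cannot be told apart.

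**Figure D2:**
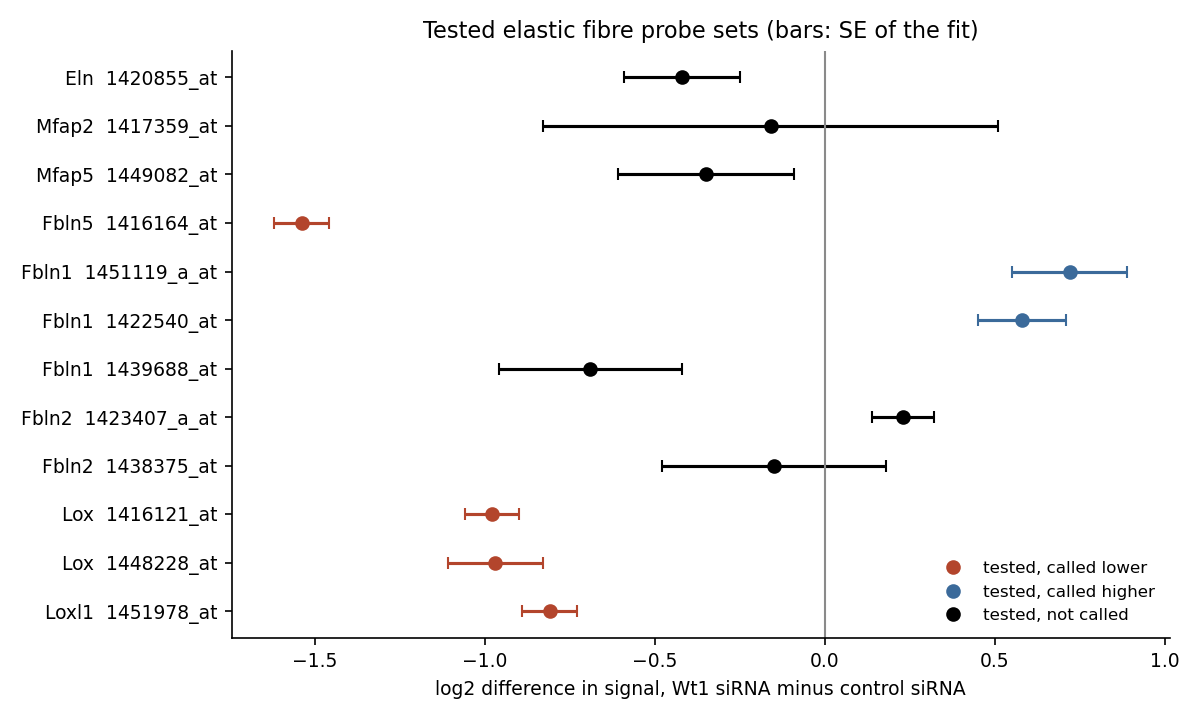
Log2 difference in signal (Wt1 siRNA minus control siRNA, horizontal axis) of the 12 tested elastic fibre probe sets, 1 row each, with the SE of the limma fit as bars. The Fbln5, Lox and Loxl1 probe sets lie at -1.54 to -0.81, and the 3 Fbln1 probe sets lie at 0.72, 0.58 and -0.69.

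The 4 member probe sets called lower lay under the 5th percentile of the differences of tested probe sets of like signal. For Fbln5 the difference of -1.54 compares with a 5th percentile of -0.58, for the brightest Lox probe set -0.98 compares with -0.52, and for Loxl1 -0.81 compares with -0.69. The 2 Fbln1 probe sets called higher, at 0.72 and 0.58, lay at or above the 95th percentile of 0.57 of their signal ranges. The other 6 member probe sets lay inside these ranges. These places rest on the same differences as the calls, and the fall of Fbln5 chose the list. They are a description and add no support to the calls.

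**Figure D3:**
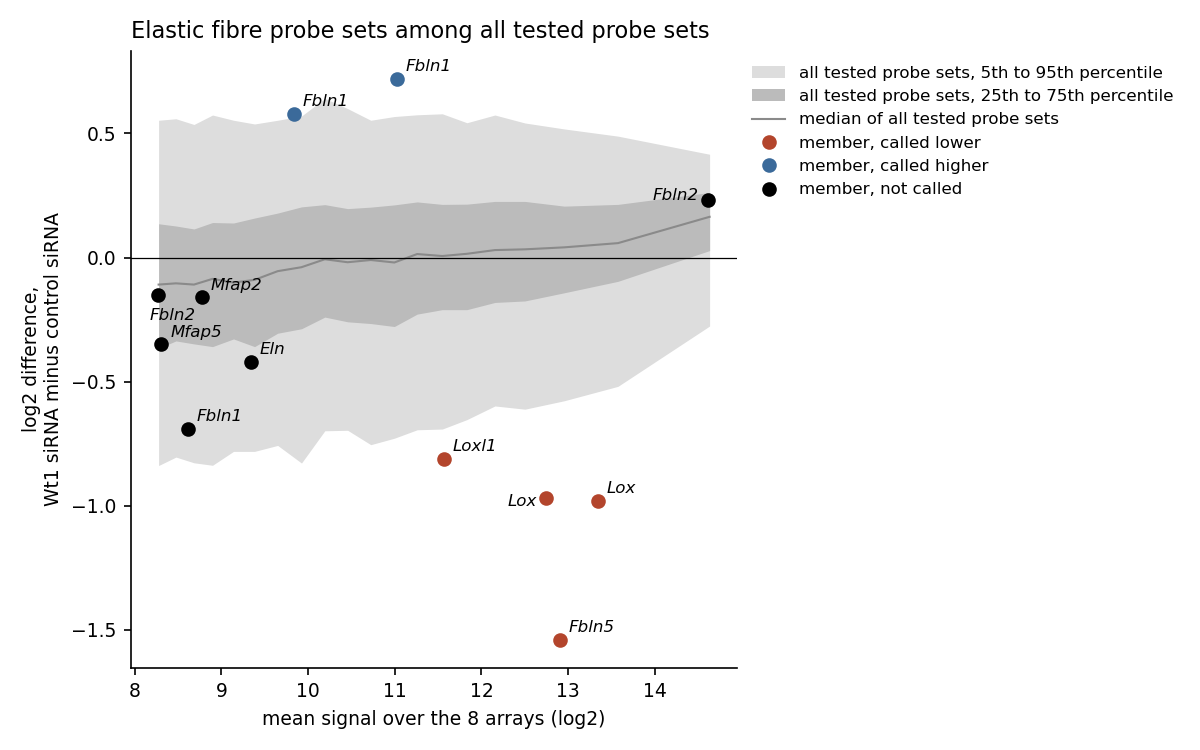
Log2 difference (Wt1 siRNA minus control siRNA, vertical axis) against the mean log2 signal over the 8 arrays (horizontal axis) for the 12 tested elastic fibre probe sets, over bands that hold the differences of all 22518 tested probe sets in 20 bins of signal. Fbln5, Lox and Loxl1 lie under the band from the 5th to the 95th percentile, and the brightest member, Fbln2 at 0.23, lies inside it.

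Markers of cell types known to lay down elastic fibres, or to be present beside such cells, were examined on the same arrays. By limma, 4 of the 5 mesothelial markers were lower and 1 (Krt19) was not called, and their summed signal was 50613 to 57440 on Wt1 siRNA arrays and 78513 to 91152 on control siRNA arrays. Of 5 smooth muscle markers 3 were tested, with Tagln and Acta2 lower and Des not called. Their summed signal was 16391 to 19762 on Wt1 siRNA arrays and 27115 to 29584 on control siRNA arrays, and Myh11 and Cnn1, which mark mature smooth muscle, were below background on all arrays. Of 6 kidney stroma markers 4 were tested and 1 (Tbx18) was lower, with summed signals of 1808 to 2243 on Wt1 siRNA arrays and 2960 to 3247 on control siRNA arrays. Of 5 endothelial markers 1 (Kdr) was tested and lower. Pecam1, Tek and Tie1 were below background, and Cdh5 exceeded it on 1 Wt1 siRNA array alone. The endothelial sums were 1593 to 1840 on Wt1 siRNA arrays and 2052 to 2718 on control siRNA arrays. Of 4 leukocyte markers Cd68 was higher and Csf1r lower, Ptprc and Itgam were below background, and the sums were 2977 to 3246 on Wt1 siRNA arrays and 2294 to 3074 on control siRNA arrays. Of 6 nephron progenitor markers 3 were tested and 1 (Osr1) was higher, with sums of 2265 to 2855 on Wt1 siRNA arrays and 1353 to 2010 on control siRNA arrays. The mesothelial, smooth muscle, stroma and endothelial sums thus moved in the same direction as Fbln5, Lox and Loxl1, and their part in these differences was not tested. Sums on the linear scale weigh the brightest gene most, here Upk1b, Acta2, Tbx18 and Kdr in that order of lists. They need not stand for a cell type, and the probe sets of Upk1b, Upk3b and Acta2 can also match other transcripts. Over the brightest probe sets of all 11263 tested named genes, 14.6% were called lower and 13.2% higher. With median centring the calls of Upk1b, Acta2 and Kdr were lost.

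Other genes of the pathway moved both ways. Of 37 further genes grouped by role, 36 were named and 27 tested, each by its brightest probe set. Of these 27, 8 were lower, 4 higher and 15 did not pass by limma, where the brightest probe sets of all 11263 tested named genes were called lower in 14.6% and higher in 13.2% of cases. The 8 include Hmcn1, which was bright enough to be tested only through its control siRNA arrays. The median log2 difference was -0.15 over the 27 genes and 0.0 over the 11263. Centring each array on its median raised all differences by 0.108 on the log2 scale, and 5 of the 27 genes were then lower and 5 higher. Among the microfibril genes, 2 of 9 tested were lower, 1 was higher and 6 did not pass. Fbn2, which encodes the fibrillin of early development, had 490.9, 396.6, 390.7 and 481.5 on Wt1 siRNA arrays and 664.2, 702.3, 842.4 and 662.2 on control siRNA arrays. The groups did not overlap, with a log2 difference of -0.71 ± 0.17 (limma adjusted p = 0.00994). The other Fbn2 probe set was too dim to be tested and its groups overlapped, with means of 248 on Wt1 siRNA arrays and 340 on control siRNA arrays. The other lower gene, Adamtsl4, which encodes a protein that binds fibrillin, was at -0.45 ± 0.13 (limma adjusted p = 0.0257), a call lost with median centring. Ltbp1, which encodes a protein that tethers latent TGF-beta to microfibrils, was higher by 0.49 ± 0.09 (limma adjusted p = 0.00301), with means of 3424 ± 237 on Wt1 siRNA arrays and 2449 ± 212 on control siRNA arrays (SD, n = 4 each).

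Of the 2 tested genes among the other fibulins, Hmcn1 was lower and Efemp1 did not pass. Hmcn1 encodes hemicentin-1, a very large relative of the fibulins. It had 216.6, 173.4, 292.0 and 270.2 on Wt1 siRNA arrays, around the background, and 588.1, 674.2, 1018.3 and 695.6 on control siRNA arrays. The log2 difference was -1.64 ± 0.24. Its Wt1 siRNA mean of 238 lay below the lowest tested mean of 291.1, so its control siRNA arrays brought it past the cut on brightness. The size of this difference is therefore uncertain, and its call as lower is a label only. Efemp1, which encodes fibulin-3, had a log2 difference of -0.10 ± 0.09 and passed as lower with quantile normalization alone among the scalings.

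Of 4 tested genes for other crosslinking enzymes, the proteases that activate them and their copper supply, 1 was higher and 3 did not pass by limma, with log2 differences above 0 for these 4. Tll1, which encodes a protease related to that of Bmp1, was too dim to be tested. It had 145.1, 78.1, 170.0 and 192.1 on Wt1 siRNA arrays, all below background, and 293.8, 503.0, 239.2 and 333.2 on control siRNA arrays, all above it. The groups did not overlap, and the control siRNA signal was at least 1.45-fold higher, with signals below background set to 227.2. With no filter Tll1 was not called (limma adjusted p = 0.0592). Loxl3 and Loxl4, other lysyl oxidase family genes, had log2 differences of 0.10 ± 0.08 and 0.45 ± 0.18, of which Loxl4 passed as higher with median centring and with quantile normalization. Loxl2 was unnamed here. Bmp1, which encodes a protease that activates lysyl oxidase, was higher by 0.46 ± 0.13 (limma adjusted p = 0.0206), with 4042.7, 4225.8, 3835.2 and 3347.3 on Wt1 siRNA arrays and 3158.5, 2182.2, 2797.7 and 3159.9 on control siRNA arrays. That call was lost without Wt1 siRNA replicate 1 or 2 (limma adjusted p = 0.0579 and 0.0644). A second tested Bmp1 probe set had a difference of 0.68 ± 0.24 that did not pass. Another Bmp1 probe set was too dim to be tested and went the other way. Its means were 146 on Wt1 siRNA arrays and 232 on control siRNA arrays, and its groups overlapped.

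Of the 5 subunits of integrins, the cell surface receptors to which fibulin-5 and other RGD-bearing proteins bind, 3 were lower and 2 (Itga5 and Itgb1) did not pass by limma. Itgb3 had 309.4, 444.6, 299.3 and 488.4 on Wt1 siRNA arrays and 639.9, 635.0, 1060.7 and 662.7 on control siRNA arrays. Its log2 difference was -0.96 ± 0.23 (limma adjusted p = 0.0123). The other Itgb3 probe set was below background on all arrays. Itgb5 and Itgav, which together form a receptor for RGD-bearing matrix proteins, were lower by log2 differences of -0.61 ± 0.08 and -0.52 ± 0.10 (limma adjusted p = 0.000204 and 0.00337). The Itgav call was lost with median centring, and the Itgb5 probe set can also match other transcripts.

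The elastin receptor complex, which binds elastin fragments, had 2 of 3 genes higher and 1, Neu1, that did not pass. Glb1, the lysosomal beta-galactosidase gene a splice form of which is the elastin-binding subunit in humans, was higher by 0.44 ± 0.12 (limma adjusted p = 0.0174), a call lost without Wt1 siRNA replicate 1 or 2 or control siRNA replicate 2 (limma adjusted p = 0.0502, 0.0594 and 0.0526). Its means were 2425 ± 241 on Wt1 siRNA arrays and 1787 ± 236 on control siRNA arrays (SD, n = 4 each). Ctsa, encoding the protective protein cathepsin A, was higher by 0.35 ± 0.08 (limma adjusted p = 0.00626), while its second tested probe set had a difference of -0.41 ± 0.17 that did not pass.

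Of 5 elastin-degrading proteases only Mmp2 was bright enough to be tested, and it was lower by a log2 difference of -0.39 ± 0.07 (limma adjusted p = 0.00294), a call lost with median centring. Of the 3 TGF-beta ligands, which latent binding proteins hold in microfibrils, Tgfb3 was lower and the other 2 did not pass. Tgfb3 had 927.5, 676.1, 747.8 and 1253.5 on Wt1 siRNA arrays and 3003.4, 2656.2, 3049.8 and 2691.0 on control siRNA arrays, a log2 difference of -1.70 ± 0.17 (limma adjusted p = 4.61e-05).

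**Figure D4:**
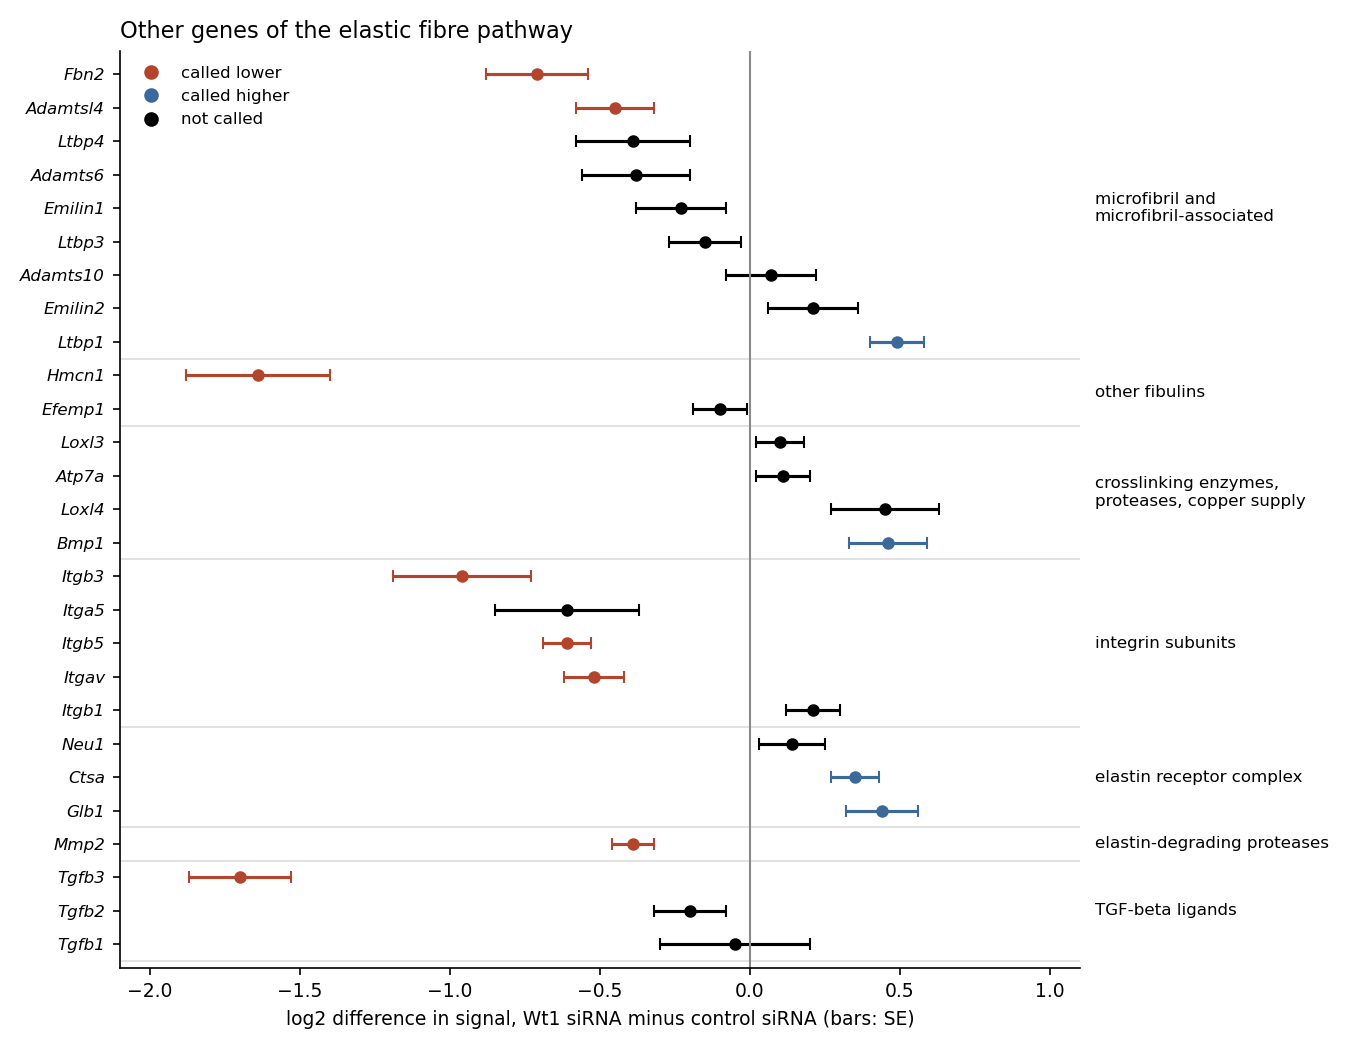
Log2 difference in signal (Wt1 siRNA minus control siRNA, horizontal axis, bars SE of the limma fit) of the 27 tested further genes of the elastic fibre pathway, grouped by role. Hmcn1 and Tgfb3 lie at -1.64 and -1.70, where the Wt1 siRNA signals of Hmcn1 were around the background. The 4 genes called higher lie at 0.35 to 0.49.

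The genes whose pattern over the 8 arrays was most like that of Fbln5 were found from the root mean square difference between log2 signals, each centred on its own mean. They were Mapk12 at 0.0574, Ppp1r2 at 0.0689, Shh at 0.0913, Cox5a at 0.102 and Antkmt at 0.117 on the log2 scale, and none of the 5 is an elastic fibre gene. Their log2 differences were -1.60, -1.57, -1.70, -1.48 and -1.42. The probe sets of Ppp1r2 and Cox5a in this comparison were not the brightest of their genes. The likeness rests almost wholly on the difference between the groups, which the fall of Fbln5 fixes, and is a description.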

How the data were processed

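The members and gene lists were chosen with earlier results of these data known. The authors deposited 1 intensity per probe set and array on a linear scale. Per the submitters' processing notes the software was MAS5, of unstated version, which subtracts mismatch from perfect match probes, so that dim signals vary widely. The 2% trimmed mean was equal on every array, and no 2 arrays had over 42 values in common. Symbols came from the platform annotation, updated by Entrez ID. Of 45037 probe sets, 34945 had 1 symbol, 932 several and 9160 none; the last 2 kinds were not named. Detection calls were not used.

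Signals were log2 transformed without further normalization. The brighter share of 0.5 by mean log2 signal (22518 probe sets, lowest mean 291.1) was tested with limma 3.58.1 in R 4.3.3 (lmFit, eBayes with intensity trend, two-sided, Benjamini-Hochberg over all tested, threshold 0.05), after a check on simulated data. Differences are Wt1 siRNA minus control siRNA. Named were all member probe sets, Wt1, up to 4 pathway genes per direction with the largest differences and no overlap, and the 5 genes most like Fbln5; Adamtsl4, Itgav, Itgb5, Mmp2, Efemp1, Loxl3, Loxl4, Tll1 and the markers were added after their values were seen. Alternatives were the replicate block, quantile normalization, median centring, offsets of 16 and 64, no filter, a share of 0.25, other variance models, 1 probe set per gene, a threshold of 0.01 and leaving out each array.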

Additional observations from a re-analysis of the deposited data

Results flagged for a closer look

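Among 54 groups of 4 arrays (the member probe sets, Wt1 and the pathway genes named by rule), an array was taken as far from the other 3 where its gap to the nearest of them, divided by the range of the group, was over Dixon's critical value. On the log2 scale 1 group held such an array, and on the linear scale, added after seeing the data, 2 did. On both scales it was control siRNA array 3 for Itgb3, with a signal of 1060.7 against 635.0 to 662.7 on the other control siRNA arrays. Without that array the log2 difference of Itgb3 was -0.78, and it was still called lower. On the linear scale it was also control siRNA array 1 for the brightest Fbln1 probe set, with 2452.8 against 1315.3 to 1499.8, a gap of 0.838 of the range. Without that array the log2 difference was 0.92, and it was still called higher. By chance about 1 in 20 groups would stand out in this way.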

How the results depend on the processing

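The member probe sets called lower numbered 4, and 3 to 5 over the 19 alternatives. With no filter the dimmer Fbln5 probe set was added and, without Wt1 siRNA replicate 4, the third Fbln1 probe set, and the 3 came with 1 probe set per gene. The member probe sets called higher numbered 2, and 1 with the brightest share of 0.25, with 1 probe set per gene and at a threshold of 0.01, where the brightest Fbln1 probe set, at 0.72, no longer passed. The first 2 of these settings test fewer probe sets. The pathway genes called lower numbered 8, but 5 with the brightest share of 0.25 and 5 with median centring. At a threshold of 0.01 they numbered 6, since Itgb3 (-0.96) and Adamtsl4 (-0.45) did not pass. Those called higher numbered 4, and 2 at that threshold, where Bmp1 (0.46) and Glb1 (0.44) did not pass. Leaving out arrays gave 2 to 4 called higher and 7 to 9 called lower, with 2 higher without Wt1 siRNA replicate 1 or 2. Over all probe sets 5194 were called, 3395 of 9096 with 1 probe set per gene and 2720 at a threshold of 0.01, and 3774 to 5763 when arrays were left out. Over all alternatives in which it was tested the difference of Fbln5 was -1.58 to -1.43, that of the brightest Lox probe set -1.02 to -0.87 and that of Loxl1 -0.85 to -0.70, all called. The sign turned for Mfap2, at 0.32 without Wt1 siRNA replicate 2 and at 0.04, 0.23 and 0.02 without control siRNA replicates 2, 3 and 4 (range -0.91 to 0.32), and for the dimmer Fbln2 probe set at 0.18 without Wt1 siRNA replicate 4 (range -0.32 to 0.18). The cause was not tested.

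Same-numbered arrays did not pair: the correlations of their deviations from the group means were -0.037, -0.062, 0.043 and 0.082, and only array 3 matched its own number best. With the replicate number as a block, 4608 probe sets were called over the whole table, and the members' 4 lower and 2 higher calls and the pathway's 8 and 4 were as many as without it. Some or all arrays had MAS5 signals near or below the background of 227.2 on the Mfap2, Mfap5 and untested member probe sets. A Wt1 siRNA array was also below it on the dimmer Fbln2 probe set and on the third Fbln1 probe set.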
